A study of Mus musculus with 14 samples.

Results

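The phagocyte NADPH oxidase is the enzyme with which macrophages, monocytes, dendritic cells and neutrophils turn oxygen into superoxide. Its genes were followed here in the colon of mice gavaged with Bacteroides thetaiotaomicron, an anaerobe of the gut that feeds on polysaccharides, or with phosphate-buffered saline (PBS). The genes were taken by name from the deposited count table: Cybb, Cyba, Ncf1, Ncf4 and Rac2, 5 of its 21898 genes, and all 5 passed the filter on low counts that left 14070 genes for testing. There were 7 B. thetaiotaomicron samples and 7 PBS samples, each a separate RNA sequencing library of colon tissue. All 14 are labelled as wild type, primary tissue of batch 3, and all carry the same treatment entry, a drug stimulation, so the gavage was read from the titles. The sources used here give no strain, age, sex or time between gavage and sampling. Most titles call the samples biological replicates without saying whether each came from 1 animal, so each p-value below speaks of spread among these samples, which may be partly technical.

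The oxidase has a membrane part and a cytosolic part that meet only when the cell is activated. Cybb encodes the catalytic subunit of the membrane cytochrome, which carries the haem and flavin groups, and Cyba encodes the smaller partner that Cybb needs for stability. Ncf1 encodes the organizer that, once phosphorylated, docks the cytosolic complex on the product of Cyba. Ncf4 encodes the adaptor that binds a phosphoinositide of the phagosome membrane. Rac2, a small GTPase of blood cells, joins the assembled complex. Loss of the human counterpart of Cybb, Cyba, Ncf1 or Ncf4 causes chronic granulomatous disease. In the intestine, epithelial cells have related oxidases, and the product of Cyba also serves some of those.

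Counts ranged from 13150140 to 16781708 per sample. Samples of both groups varied widely in distal hindgut markers: Hoxb13, a transcription factor gene of the distal hindgut, averaged 137 ± 135 CPM with B. thetaiotaomicron and 228 ± 202 CPM with PBS (SD, n = 7 each; CPM is the read count relative to a TMM-scaled library size). PBS samples 1, 3 and 5 and B. thetaiotaomicron sample 3 stood apart from the other libraries on the first principal component, and PBS sample 4 on the second. The 5 members, and the other genes that passed the test and are named below, are given with and without those 4 libraries of the first component. Pan-leukocyte markers had a mean level of 5.19 log2 CPM in PBS sample 3, the lowest of the 14. In whole tissue, more cells of a type and more RNA per cell cannot be told apart, and that holds for each difference below.

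All 5 genes are protein-coding. By identifier in the GENCODE M21 annotation of GRCm38, Cybb (ENSMUSG00000015340) lies between 9435252 and 9487771 of chromosome X (minus strand), and Cyba (ENSMUSG00000006519) between 122424776 and 122432930 of chromosome 8 (minus strand). Ncf1 (ENSMUSG00000015950) spans 134220053 to 134229625 of chromosome 5 (minus strand). Ncf4 (ENSMUSG00000071715) and Rac2 (ENSMUSG00000033220) both lie on chromosome 15, spanning 78244801 to 78262580 (plus strand) and 78559167 to 78572783 (minus strand), with 296587 bases between them. Counts covered the exons of a whole gene, so no exon is singled out. Of the 50-base stretches of Cybb and Ncf4 transcripts, 0 occurred in a transcript of another gene. The share was 1.29% for Rac2, 2.39% for Cyba and 7.45% for Ncf1. The Ncf1 exons share 408 bases with exons of Gtf2ird2, a gene on the opposite strand, and no source used here says whether the counting used strand. Gtf2ird2 itself had a log2 fold change of 0.05 ± 0.09 (SE).

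The promoters of 3 members were found by symbol in the RefSeq table for GRCm38.p6, and they are shown as the sequence next to the membrane pair and the organizer. Ncf4 and Rac2 were not matched, so the motif counts are a description of 3 windows and were not set against the fold changes. Each stretch is the 250 bases before the annotated RefSeq start, 5′ to 3′ on the gene's own strand. Capitals mark a pair of GAAA with 2 free bases between them, or the same read on the other strand, a spacing bound by interferon regulatory factors.
Cybb, chrX:9469325-9469574, minus strand: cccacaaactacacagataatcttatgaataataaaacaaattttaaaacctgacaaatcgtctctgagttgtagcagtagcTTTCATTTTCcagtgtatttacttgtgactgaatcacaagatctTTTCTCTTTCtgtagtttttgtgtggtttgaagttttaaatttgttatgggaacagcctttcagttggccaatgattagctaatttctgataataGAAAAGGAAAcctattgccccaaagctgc
Ncf1, chr5:134229626-134229875, minus strand: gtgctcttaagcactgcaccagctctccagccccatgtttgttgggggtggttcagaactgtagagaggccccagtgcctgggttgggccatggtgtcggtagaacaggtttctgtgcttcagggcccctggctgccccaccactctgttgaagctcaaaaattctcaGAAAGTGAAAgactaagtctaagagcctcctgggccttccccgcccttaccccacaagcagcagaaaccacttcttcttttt
Cyba, chr8:122432941-122433190, minus strand: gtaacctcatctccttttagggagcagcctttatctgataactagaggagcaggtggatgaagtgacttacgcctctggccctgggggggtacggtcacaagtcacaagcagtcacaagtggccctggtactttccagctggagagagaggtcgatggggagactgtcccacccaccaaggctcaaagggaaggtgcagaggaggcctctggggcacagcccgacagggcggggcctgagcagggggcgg

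The Cybb stretch held 3 such GAAA pairs, 1 on the gene's strand at bases -29 to -20 before the start and 2 on the other strand at -168 to -159 and -124 to -115. Ncf1 held 1, at -82 to -73, and Cyba held 0. Of 32851 promoter windows of the same length in the table, 2.98% hold at least 1 match. The other motifs searched on both strands were GAGGAA, a core bound by ETS factors such as PU.1, its longer relative AGGAAGT, the CCAAT box and TATAAA, and none of the 5 motifs overlapped another in these windows. CCAAT occurred once, in Cybb at -56 to -52, and in 33.9% of all windows. GAGGAA occurred in 0 of the 3 windows and in 23.3% of all. For AGGAAGT the share of all windows was 7.69%, for TATAAA 12.4%, and neither was found in the 3. The 2 annotations place some starts differently, and other starts are not covered: the first 50 bases after the RefSeq start were held by 4 of 7 GENCODE transcripts of Ncf1, 1 of 5 of Cybb and 0 of 3 of Cyba.

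Cybb, the catalytic subunit, rose with the bacterium. Its level was 38.2 CPM in the lowest, 48.5 in the median and 58.7 in the highest B. thetaiotaomicron sample, against 31.6, 32.9 and 40.1 CPM in the PBS samples. In this gene 6 B. thetaiotaomicron samples lay above every PBS sample, and the groups overlapped only through B. thetaiotaomicron sample 5, which lay below PBS sample 2. The means were 48.9 ± 6.5 CPM with B. thetaiotaomicron and 34.7 ± 3.39 CPM with PBS (SD, n = 7 each). By edgeR's quasi-likelihood test the log2 fold change was 0.50 ± 0.09 (SE), a 1.41-fold higher level with a 95% interval of 1.24 to 1.60, with a Benjamini-Hochberg adjusted p of 0.0378 over all genes tested. A two-sided exact permutation test of the log2 CPM gave p = 0.00117 (n = 7 each). Ordered by p, Cybb was number 13 of 14070 genes.

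That call held in edgeR without B. thetaiotaomicron sample 5, PBS sample 2 or PBS sample 4. It was lost without any other single library (B. thetaiotaomicron sample 1, 2, 3, 4, 6 or 7, or PBS sample 1, 3, 5, 6 or 7), with edgeR adjusted p from 0.0524 to 0.108 and log2 fold changes from 0.45 to 0.52. Without the 4 libraries that stand apart it was 0.43 (edgeR adjusted p = 0.284).

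**Figure D1:**
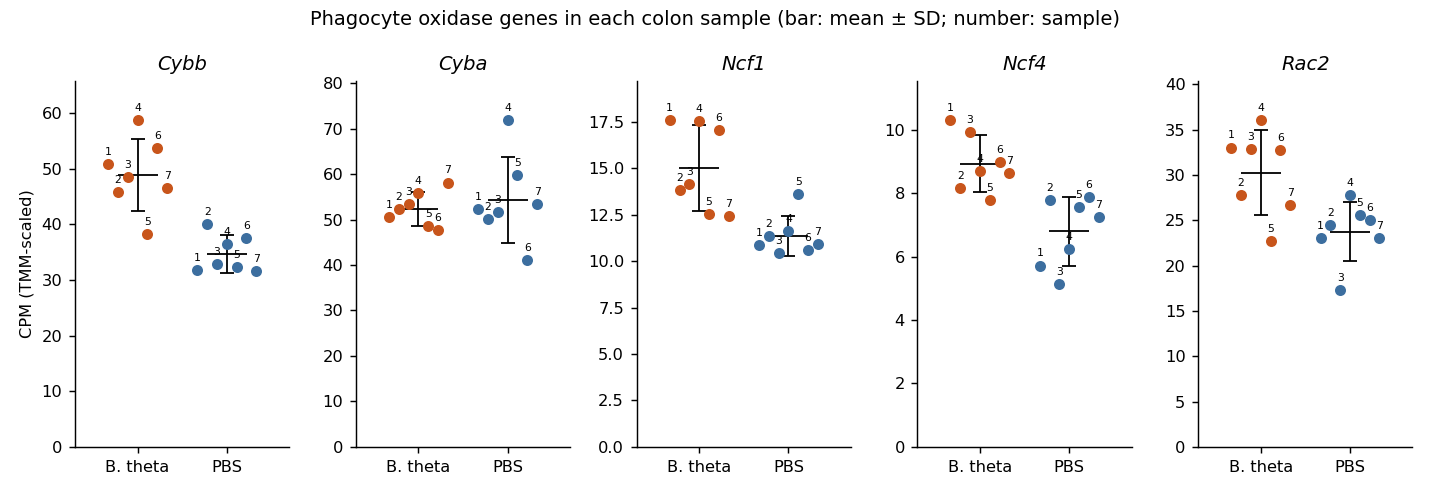
Level of each phagocyte oxidase gene in CPM on TMM-scaled library sizes, with 1 point per colon sample, the sample's number above it, and bars for the mean and SD of each group. Cybb separates the B. thetaiotaomicron samples from the PBS samples except for samples 5 and 2 at 38.2 and 40.1 CPM, while Cyba spans 47.7 to 58.1 CPM with B. thetaiotaomicron and 41.1 to 71.8 CPM with PBS.

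Cyba, the partner of Cybb in the membrane, did not pass, and its values overlapped throughout. Its lowest, median and highest levels were 47.7, 52.2 and 58.1 CPM with B. thetaiotaomicron, against 41.1, 52.3 and 71.8 CPM with PBS. The PBS range enclosed the B. thetaiotaomicron range, with PBS sample 6 lowest and PBS sample 4 highest of all 14. The log2 fold change was -0.05 ± 0.10 (SE), with a 95% interval of -0.26 to 0.15 (edgeR adjusted p = 0.837; exact permutation p = 0.721, n = 7 each). The interval does not reach the fitted value of Cybb. Without the 4 libraries that stand apart the value was also -0.05. It turned positive in limma-voom with sample weights (0.0075) and in edgeR without PBS sample 4 (0.028).

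Ncf1, the organizer, had higher values with the bacterium but did not pass the test over all genes. It ranged over 12.4, 14.2 and 17.6 CPM (lowest, median, highest) with B. thetaiotaomicron, against 10.4, 10.9 and 13.6 CPM with PBS. The B. thetaiotaomicron samples 1, 4 and 6 lay together at 17.1 to 17.6 CPM, and 5 of 7 lay above the highest PBS sample. The log2 fold change was 0.40 ± 0.10 (SE), 1.32-fold with a 95% interval of 1.14 to 1.53 (edgeR adjusted p = 0.0917; exact permutation p = 0.00233, n = 7 each). DESeq2 called it on the same counts (adjusted p = 0.0152), and edgeR gave 0.45 without the 4 libraries that stand apart. Of all genes tested, DESeq2 called 447, against 35 by edgeR.

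Ncf4, the phosphoinositide-binding adaptor, was the member with the fewest counts, from 105 to 164 with B. thetaiotaomicron and from 73 to 123 with PBS. Its levels were 7.78, 8.69 and 10.3 CPM with B. thetaiotaomicron, against 5.13, 7.23 and 7.87 CPM with PBS. In this gene 6 B. thetaiotaomicron samples lay above every PBS sample, sample 5 again being the exception. The log2 fold change was 0.39 ± 0.11 (SE), 1.31-fold with a 95% interval of 1.11 to 1.55 (edgeR adjusted p = 0.126; exact permutation p = 0.00175, n = 7 each). DESeq2 called it (adjusted p = 0.0348), and the value was 0.27 in edgeR without the 4 libraries that stand apart.

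Rac2, the GTPase of the complex, had levels of 22.7, 32.7 and 36.0 CPM with B. thetaiotaomicron, against 17.3, 24.5 and 27.8 CPM with PBS. B. thetaiotaomicron samples 5 and 7 fell within the PBS range, sample 5 being the lowest of its group, and 5 of 7 lay above the highest PBS sample. PBS sample 3 was the lowest of all 14. The log2 fold change was 0.35 ± 0.11 (SE), 1.28-fold, with a 95% interval of 0.12 to 0.59 on the log2 scale (edgeR adjusted p = 0.158; exact permutation p = 0.0146, n = 7 each). DESeq2 did not call it (adjusted p = 0.0697). Without the 4 libraries that stand apart it was 0.26.

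Of the 5 members, 1 passed the edgeR adjusted p of 0.05, with a higher level; the share of all tested genes called higher was 0.156%. An unadjusted p under 0.05 with a higher level was reached by 4 of the 5, against 7.98% of all genes tested. In 0 of the 5 did all B. thetaiotaomicron samples lie above all PBS samples, which held for 0.206% of all genes tested. The median log2 fold change of the members was 0.39, beside -0.01 over all genes tested, and 46.2% of those had a positive value. Log2 fold changes above those of Cybb, Ncf1, Ncf4 and Rac2 were found in 3.32%, 5.24%, 5.44% and 6.40% of all genes tested. The members were chosen with earlier results of these data known, and these 4 were correlated with one another within the groups. The shares are therefore descriptions and no test of the members as a set.

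**Figure D2:**
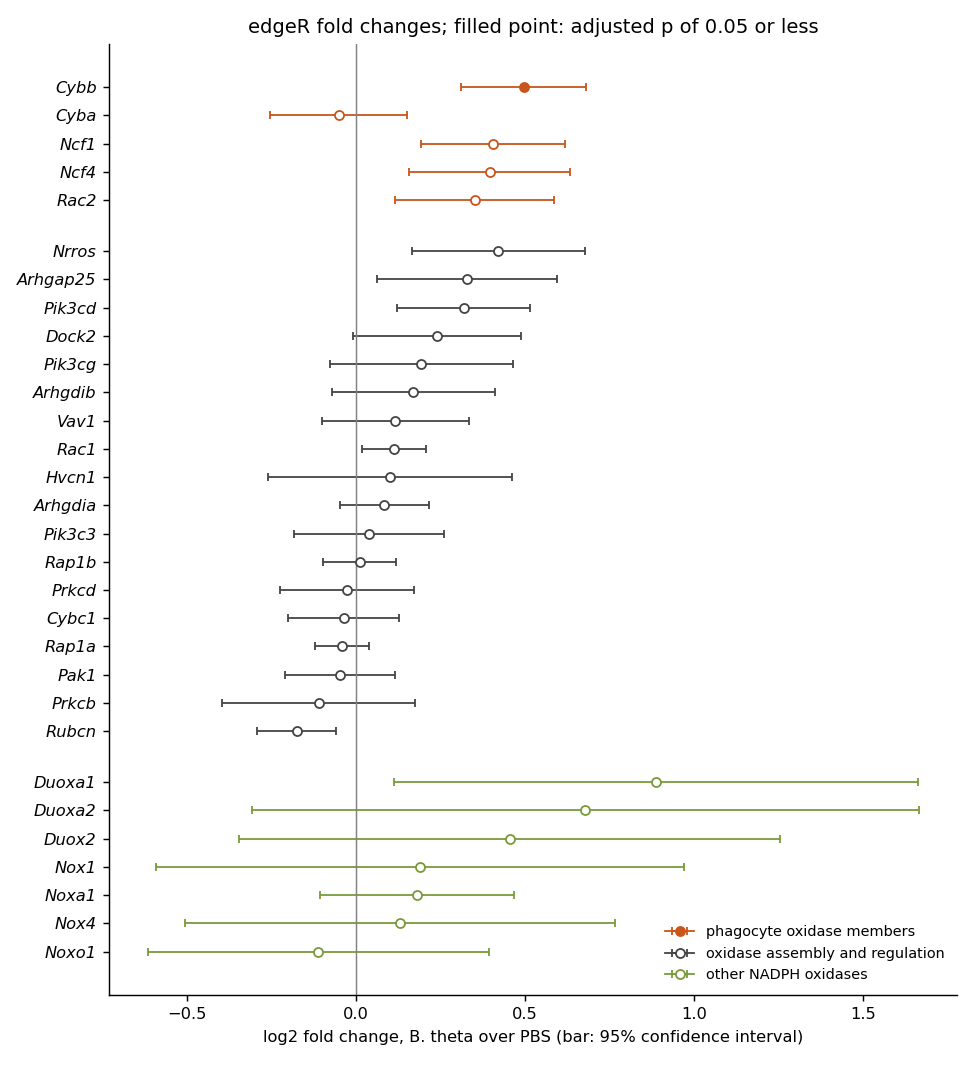
Log2 fold change of each gene, B. thetaiotaomicron over PBS, from edgeR, with bars for the 95% confidence interval and filled points for an adjusted p of 0.05 or less, for the 5 members, 18 tested genes of oxidase assembly and regulation and 7 other NADPH oxidase genes. Cybb at 0.50 is the filled point, the interval of Cyba spans 0, and the intervals of Duoxa2, Duox2 and Nox1 are the widest.

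Compared per length, the members were far from equal in level. On the deposited FPKM scale, which divides counts by gene length and library total, Cyba averaged 50.5 ± 3.52 with B. thetaiotaomicron and 52.1 ± 9.51 with PBS, whereas Cybb averaged 8.44 ± 1.16 with B. thetaiotaomicron and 5.96 ± 0.66 with PBS (SD, n = 7 each). Over all 14 samples Rac2 followed Cyba at 8.70 FPKM, then Cybb at 7.20, Ncf4 at 3.89 and Ncf1 at 3.60. Ncf4 was above Ncf1 in 9 of 14 samples with overlapping ranges, and levels were not tested between genes. Cybb was above Ncf4 in 14 of 14, with ranges apart. Rac2 was above Cybb in 13 of 14 samples with overlapping ranges. Cyba was above Nox1, the next gene below it among those plotted, in 14 of 14. These lengths are sums over all annotated exons, 5808 bases for Cybb and 1039 for Cyba, so a gene with long rare isoforms has a lower FPKM.

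The ratio of Cybb to Cyba FPKM in a sample was 0.141, 0.163 and 0.201 (lowest, median, highest) with B. thetaiotaomicron, against 0.0909, 0.109 and 0.164 with PBS, and 3 B. thetaiotaomicron samples lay above every PBS sample. For Ncf1, Ncf4 and Rac2 relative to Cybb, 0 B. thetaiotaomicron samples lay above every PBS sample, and the medians were lower with B. thetaiotaomicron. The ratio of Ncf1 to Cybb was 0.424, 0.480 and 0.547 with B. thetaiotaomicron and 0.447, 0.505 and 0.666 with PBS. The ratio of Ncf4 to Cybb was 0.425, 0.534 and 0.588 with B. thetaiotaomicron and 0.449, 0.558 and 0.672 with PBS. The ratio of Rac2 to Cybb was 1.07, 1.14 and 1.27 with B. thetaiotaomicron and 0.985, 1.36 and 1.48 with PBS. All these ratios overlapped between the groups, and none was tested.

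**Figure D3:**
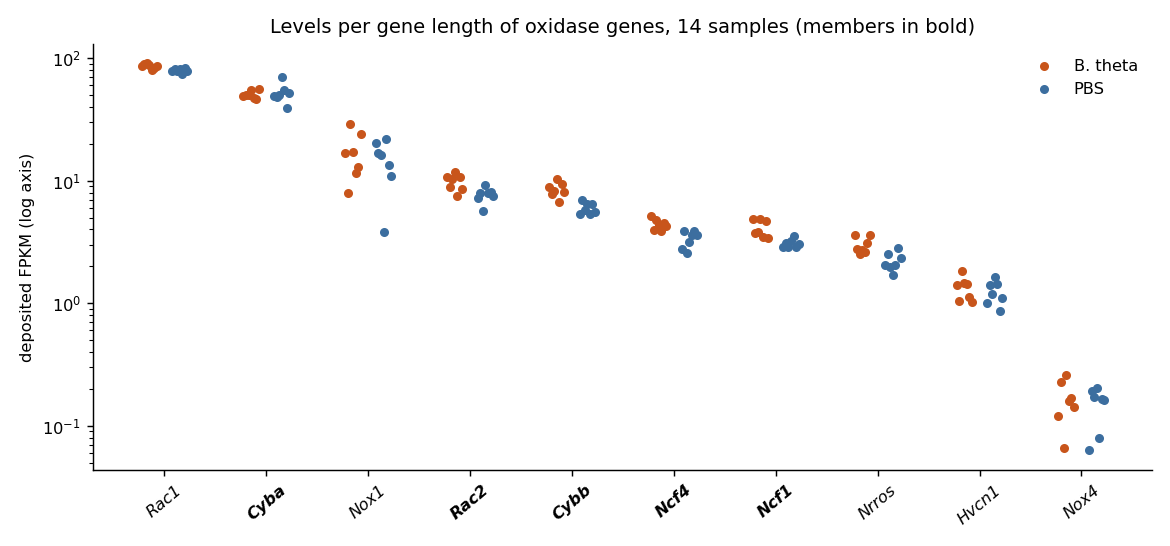
Deposited FPKM on a log axis for 10 oxidase genes, 1 point per sample, B. thetaiotaomicron left of PBS for each gene, members in bold and genes ordered by their mean. Cyba at a mean of 51.3 FPKM stands well above Rac2 at 8.70 and Cybb at 7.20, and Ncf4 and Ncf1 lie together at 3.89 and 3.60.

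The remaining genes of oxidase assembly and regulation were read from a list of 19, of which 18 were tested. None passed over all genes in edgeR; 4 had an unadjusted p under 0.05 with a higher level and 1 with a lower level, and DESeq2 called 2, both higher. The list's median log2 fold change was 0.09. Nrros, which encodes a membrane protein that in mouse phagocytes promotes the breakdown of the Cybb product, averaged 12.4 ± 1.79 CPM with B. thetaiotaomicron and 9.30 ± 1.59 CPM with PBS (SD, n = 7 each). Its log2 fold change was 0.42 ± 0.12 (SE; edgeR adjusted p = 0.128), and DESeq2 called it along with Pik3cd, a phosphoinositide kinase gene of leukocytes (0.32 in edgeR). The other genes with an unadjusted p under 0.05 were Rac1, Arhgap25, a leukocyte gene for a protein that turns Rac off (0.33), and Rubcn, a gene of phagosome maturation that had the lower level (-0.18).

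Rac1, the widely expressed relative of Rac2, had a mean of 387 ± 20.8 CPM with B. thetaiotaomicron and 358 ± 8.92 CPM with PBS (SD, n = 7 each). Its log2 fold change was 0.11 ± 0.04 (SE; edgeR adjusted p = 0.246). Per length, Rac2 stood at 0.0930, 0.114 and 0.135 of Rac1 with B. thetaiotaomicron (lowest, median, highest), against 0.0711, 0.0966 and 0.113 with PBS. Hvcn1, the proton channel that balances the charge moved by the oxidase, had a log2 fold change of 0.10 ± 0.17 (SE). Cybc1, the chaperone of the cytochrome, had -0.04, and Mpo, the neutrophil enzyme that uses the oxidase's product, was at 0 counts in all 14 samples.

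Of 9 genes of the other NADPH oxidases, 7 were tested and none passed in edgeR or in DESeq2; 1 had an unadjusted p under 0.05, the maturation factor gene Duoxa1, with a higher level (0.89). Nox1, an oxidase of the colonic epithelium, varied from 26.5 to 97.6 CPM with B. thetaiotaomicron and from 12.3 to 76.0 CPM with PBS. Its log2 fold change was 0.19 ± 0.36 (SE; edgeR adjusted p = 0.846). Duox2, an epithelial oxidase that makes hydrogen peroxide, had 0.45 ± 0.37 (SE; edgeR adjusted p = 0.599). Its level was above that of Nox1, at a mean of 48.0 FPKM over all 14 samples against 15.9 FPKM. Nox4 had 0.13 ± 0.30 (SE) at a mean of 1.37 CPM with B. thetaiotaomicron and 1.25 CPM with PBS. The intervals of Nox1, Duox2 and Nox4 include the fitted value of Cybb.

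Genes that remove reactive oxygen and genes that supply NADPH, the electron donor of the oxidase, were also read as lists. Of 22 genes that remove reactive oxygen, 0 passed in edgeR and 0 in DESeq2, and the median log2 fold change was -0.01. The 3 with an unadjusted p under 0.05, each at a higher level, were the peroxiredoxin gene Prdx4 (0.24), the thioredoxin gene Txn1 (0.38) and Gclm (0.10), a subunit of glutathione synthesis. Of 7 genes of NADPH supply, 0 passed in edgeR and 0 in DESeq2, and the median was 0.16. G6pdx, the entry enzyme of the pentose phosphate pathway, was the 1 with an unadjusted p under 0.05 (0.14).

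Markers of leukocytes had higher values in the same samples. All 7 pan-leukocyte markers had positive log2 fold changes, with a median of 0.35. By edgeR 0 passed over all genes, 7 had an unadjusted p under 0.05, and DESeq2 called 5. Over all genes tested, 7.98% had an unadjusted p under 0.05 with a higher level in edgeR, and 46.2% had a positive value. DESeq2 called 276 of the 14070 genes higher. The same background holds for the lists above and below. The summed level of the 7 markers was 355 to 465 CPM with B. thetaiotaomicron and 287 to 391 CPM with PBS, lowest in B. thetaiotaomicron sample 5 and PBS sample 3. Coro1a, an actin-binding protein gene of leukocytes, had 0.35 ± 0.10 (SE) and Cd52, a leukocyte surface protein gene, 0.30 ± 0.09 (SE). The part of these markers in the oxidase results was not tested.

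Among the phagocytes, 12 of 14 macrophage markers had positive values, with a median log2 fold change of 0.25 and a summed level of 988 to 1271 CPM with B. thetaiotaomicron and 784 to 1049 CPM with PBS. Mpeg1, a pore-forming protein gene of macrophages, was the 1 that passed in edgeR (0.51 ± 0.09, SE; adjusted p = 0.0378). Lyz2, the myeloid lysozyme gene, had 0.33 ± 0.09 (SE) and C1qa, a complement gene of tissue macrophages, 0.25 ± 0.08 (SE). Of 8 dendritic cell markers, 5 had positive values, and Itgax, an integrin gene, passed in edgeR (0.61 ± 0.11, SE; adjusted p = 0.0378), while Itgae had -0.09. Their summed level was 52.9 to 73.4 CPM with B. thetaiotaomicron and 43.4 to 58.0 CPM with PBS. The 5 tested monocyte markers all had positive values, with a median of 0.34 and sums of 750 to 1141 CPM with B. thetaiotaomicron and 609 to 974 CPM with PBS, most of it from Plac8 (0.34 ± 0.13, SE). Plac8 averaged 961 ± 124 CPM with B. thetaiotaomicron and 760 ± 157 CPM with PBS (SD, n = 7 each). These means lie above the summed pan-leukocyte markers of every sample. The cells that gave the Plac8 reads were not tested, and the sums are not read as a level of monocytes. Ly6c2 had 0.03 ± 0.19 (SE), and Ccr2, the chemokine receptor gene of monocytes, 0.85 ± 0.22 (SE; edgeR adjusted p = 0.11), which DESeq2 called. DESeq2 called 3 of the macrophage list (Mpeg1, Lyz2, Cd68) and 2 of the dendritic cell list (Itgax, Flt3). The calls of Mpeg1 and Itgax were also lost without single libraries: Mpeg1 lost its call without the same 11 single libraries as Cybb (edgeR adjusted p up to 0.109), and Itgax lost it without each library except B. thetaiotaomicron samples 3 and 5 and PBS sample 2 (edgeR adjusted p up to 0.109). Without the 4 libraries that stand apart their log2 fold changes were 0.44 and 0.62, with edgeR adjusted p of 0.283 and 0.259.

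Most neutrophil markers had few counts. Of 10, 7 were tested, 5 with positive values and 2 with negative ones, at a median log2 fold change of 1.78. The filter asked for enough counts in 7 samples, as many as 1 group holds. A gene low with PBS can thus be kept through the B. thetaiotaomicron samples alone. The median and the counts of genes here describe only the genes kept, and the same limit holds for the other lists with few counts. In edgeR 0 passed, and 5 had an unadjusted p under 0.05, each at a higher level. DESeq2 called 1, the growth factor receptor gene Csf3r (1.78 in edgeR). Elane was at 0 counts in all 14 samples. S100a9 averaged 4.01 ± 2.70 CPM with B. thetaiotaomicron and 0.746 ± 1.39 CPM with PBS, while Ly6g averaged 70.8 ± 67.6 CPM with B. thetaiotaomicron and 128 ± 120 CPM with PBS (SD, n = 7 each). Their log2 fold changes were 2.45 ± 0.83 for S100a9 and -0.85 ± 0.87 for Ly6g (SE). The list's sum, most of it Ly6g on average, ran from 48.7 to 217 CPM with B. thetaiotaomicron and from 8.77 to 324 CPM with PBS. Ly6g alone ran from 0.353 to 321 FPKM over the 14 samples, so the sum is not read as a level of neutrophils.

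Eosinophil markers had summed levels of 6.82 to 13.5 CPM with B. thetaiotaomicron and 4.06 to 9.03 CPM with PBS, with Ear1 at 0 in all samples. Of the 4 tested, 3 had positive log2 fold changes, with a median of 0.66: the chemokine receptor gene Ccr3 had 1.48, the cytokine receptor gene Il5ra 0.92, Siglecf 0.39 and Prg2 -0.27. Mast cell markers summed to 68.2 to 133 CPM with B. thetaiotaomicron and 55.9 to 151 CPM with PBS, where Kit (0.14), also a gene of the gut's pacemaker cells, gave most of the sum and Mcpt1 had 0.87. All 8 B cell markers had negative values, with a median log2 fold change of -0.66. Their sums were 17.1 to 114 CPM with B. thetaiotaomicron and 13.7 to 119 CPM with PBS, and Cd79a and Cd79b had -0.03 and -0.43. Of 9 T and NK cell markers 8 had positive values, with sums of 36.5 to 49.0 CPM with B. thetaiotaomicron and 19.3 to 50.7 CPM with PBS, and with Cd4 at 0.35 and Nkg7 at 0.25. No eosinophil, mast cell, B cell or T and NK cell marker passed in edgeR or in DESeq2; 2, 1, 0 and 1 had an unadjusted p under 0.05. Of the structural lists, colonocyte markers had a median of 0.14 (Krt8 0.14, Car1 -0.57) and sums of 10516 to 13969 CPM with B. thetaiotaomicron and 10146 to 14253 CPM with PBS. Smooth muscle markers had a median of -0.07 (Actg2 -0.07, Acta2 -0.08), with sums of 2873 to 5653 CPM with B. thetaiotaomicron and 3565 to 6259 CPM with PBS. Hoxa13, with Hoxb13 the most abundant distal hindgut marker, had 0.11 ± 0.44 (SE). Of these structural markers 0 passed in edgeR, 3 had an unadjusted p under 0.05, all of colonocytes, and DESeq2 called 1, the epithelial adhesion gene Epcam (0.15 in edgeR).

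Within the groups, Cybb, Ncf1, Ncf4 and Rac2 were positively correlated, with pairwise Pearson r from 0.42 to 0.73, while Cyba did not follow them. How often other pairs of genes reach such values was not computed. Correlations were taken over 14 samples between deviations from the group mean in log2 CPM, so the difference between the groups does not enter. They are descriptions, since both genes of a pair are read from the same tissue piece and library. Ncf1 and Rac2 had a Pearson r of 0.73 (Spearman rho 0.79), Cybb and Rac2 0.72 (rho 0.64), Ncf4 and Rac2 0.64 (rho 0.51) and Cybb and Ncf1 0.57 (rho 0.39). Cybb and Ncf4 had 0.44 (rho 0.47) and Ncf1 and Ncf4 0.42 (rho 0.48). The 4 pairs that hold Cyba ranged from -0.21 with Ncf4 to 0.26 with Rac2, and Cybb with Cyba had -0.02 (rho -0.10). In B. thetaiotaomicron sample 5 every member ranked sixth or seventh of 7, and in PBS sample 3 Ncf1, Ncf4 and Rac2 were the lowest of their group.

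The mean of the pan-leukocyte markers, again as deviations, had a Pearson r of 0.80 with Cybb (rho 0.72), 0.81 with Rac2 (rho 0.75), 0.79 with Ncf1 (rho 0.78) and 0.68 with Ncf4 (rho 0.68), against 0.01 with Cyba (rho 0.10). The values with single phagocyte lists varied from member to member. Cybb had 0.81 with the monocyte markers (rho 0.73) and 0.72 with the macrophage markers (rho 0.78). Ncf1 had 0.79 with the dendritic cell markers (rho 0.70) and 0.19 with the macrophage markers (rho 0.10), and Ncf4 had 0.58 with the monocyte markers (rho 0.71) and 0.05 with the macrophage markers (rho 0.11). Cyba had 0.50 with the B cell markers (rho 0.44) and -0.28 with the colonocyte markers (rho -0.10).

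**Figure D4:**
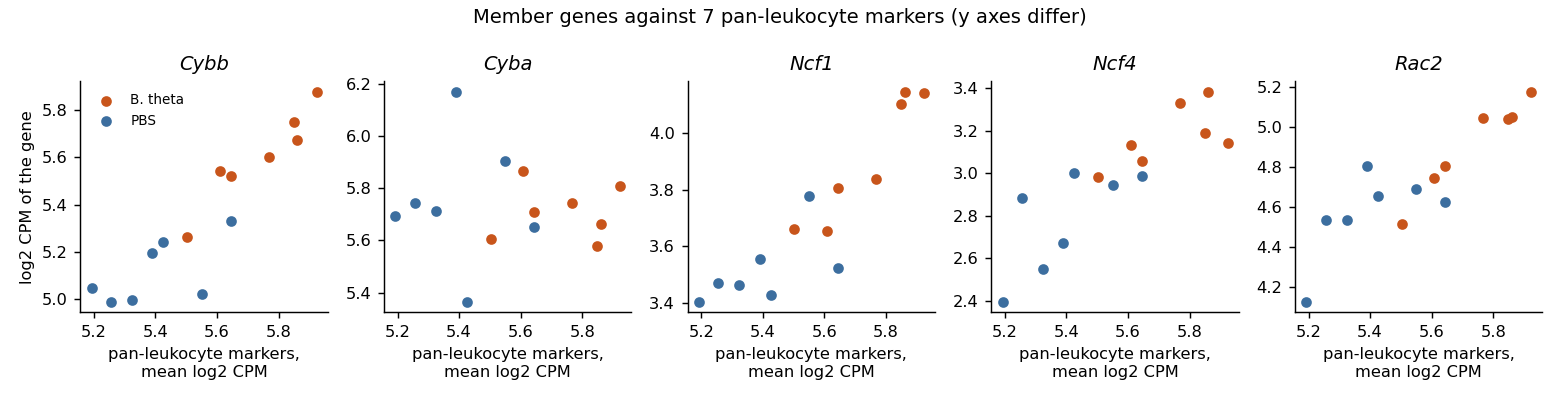
Log2 CPM of each member against the mean log2 CPM of 7 pan-leukocyte markers, 1 point per sample, B. thetaiotaomicron samples in orange and PBS samples in blue. Cybb, Ncf1, Ncf4 and Rac2 climb with the markers within and across the groups (Pearson r of 0.80, 0.79, 0.68 and 0.81 for deviations from the group means), while Cyba has 0.01.

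The genes whose pattern was most like that of a member were sought among 11423 genes with a mean of at least 5 CPM, by Pearson r of the same deviations over 14 samples. For Cybb they were Spast (0.91), which encodes a microtubule-severing protein, Pld4 (0.89), a nuclease gene of myeloid cells, Laptm5 (0.89), a lysosomal protein gene of leukocytes, Timm17b (0.88), a mitochondrial import gene, and Ifitm3 (0.87), an interferon-induced membrane protein gene. Ifitm3 passed the edgeR test with a log2 fold change of 0.71 ± 0.11 (SE; adjusted p = 0.0378), a call lost without B. thetaiotaomicron sample 1, 2, 4, 6 or 7 or PBS sample 1, 3, 5, 6 or 7 (edgeR adjusted p up to 0.0993). Without the 4 libraries that stand apart it had 0.62 (edgeR adjusted p = 0.259). Pld4 and Laptm5 had 0.49 and 0.37, while Spast and Timm17b had -0.14 and 0.03. For Ncf1 they were Il10ra (0.85), a cytokine receptor gene, Arhgap45 (0.83) and Coro1a (0.80). For Rac2 they were Tspan14 (0.88), Coro1a (0.86) and Ifi35 (0.86). For Ncf4 they were Chek2 (0.89), Rnf19b (0.87) and Irf1 (0.86), an interferon regulatory factor gene. For Cyba they were 1810058I24Rik (0.90), Wbp1 (0.89) and Emid1 (0.87), whose log2 fold changes lay between -0.14 and 0.01. These are the highest of 11423 values per member, over 14 samples of whole tissue, and they are descriptions.

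**Figure D5:**
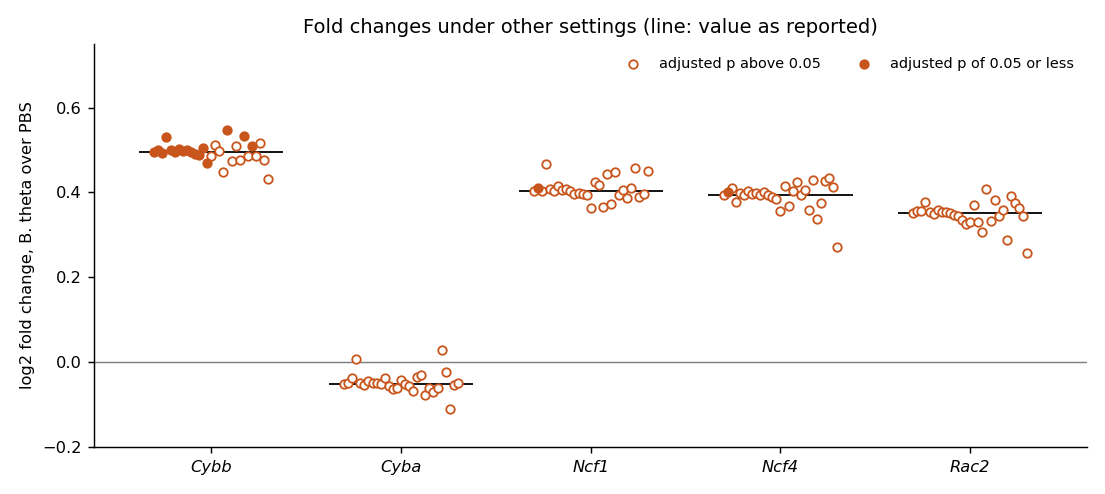
Log2 fold change of each member, B. thetaiotaomicron over PBS, as reported (line) and under 28 other settings of the analysis (points, filled where the adjusted p is 0.05 or less). Cybb stays between 0.43 and 0.55, and Ncf1, Ncf4 and Rac2 stay above 0 with minima of 0.36, 0.27 and 0.26, while Cyba lies on both sides of 0, from -0.11 to 0.028.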

How the data were processed

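Per the file headers, 1 table deposited by the authors holds raw counts and FPKM for each gene; FPKM was checked to be counts over gene length and column total. The sources used here do not give the aligner, counting program or strand use; GRCm38 and mm10 are the builds named, per the submitters' processing notes. The table's coordinates differ from GENCODE M21, so positions were taken from GENCODE M21 by identifier. RNA was column-purified and libraries came from a SMARTER mRNA kit, per the labels' protocols.

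Library names tied columns to samples and gave the replicate numbers. Genes were kept with filterByExpr (minimum count 10, minimum total count 15), scaled by TMM and tested with edgeR 4.0.16 in R 4.3.3 (robust quasi-likelihood F test on gavage group alone), with Benjamini-Hochberg adjustment over 14070 genes at 0.05. The biological coefficient of variation was 0.21. Standard errors were taken from the log2 fold change and F. Log2 CPM used a prior count of 2. Exact permutation tests were two-sided over 3432 arrangements. FPKM was not tested.

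Alternatives used DESeq2 1.42.0, limma-voom (limma 3.58.1), sva 3.50.0, other scalings and filters, a replicate block, covariates and left-out samples. On simulated counts for this comparison over 14070 genes, edgeR found 24% of 50 genes set to 1.3-fold, 42% of 50 set to 1.5-fold, 88% of 50 set to 2-fold and 92% of 50 set to 3-fold; of its 127 calls 4 were false. Every pair of libraries within a group differed by more than sampling noise. The members and lists were chosen with earlier results of these data known. Genes named outside the members follow a rule: list members that passed the test, Rac1, Nox1, Nox4, Hvcn1 and Nrros, the 2 most abundant of each marker list by FPKM, and the genes most alike to a member. Pik3cd, Arhgap25, Rubcn, Cybc1, Mpo, Duox2, Duoxa1, Duoxa2, Prdx4, Txn1, Gclm, G6pdx, Csf3r, Ccr2, Ccr3, Il5ra, Cd68, Flt3, Epcam, Elane, Ear1 and the neighbour Gtf2ird2 were named after their values were seen. A gene of the assembly list that the rule also names is not reported here.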

Additional observations from a re-analysis of the deposited data

Results flagged for a closer look

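Of 20 groups of 7 samples (10 oxidase genes in each gavage group), 1 held a sample far from the others, and chance gives about 1 in 20. Ncf1 in PBS sample 5 was at 13.6 CPM, the highest of its group, with a gap to the next sample of 0.624 of the group's range.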

How the results depend on the processing

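Cybb kept its direction in all 28 other settings (0.43 to 0.55 on the log2 scale), as did Ncf1 (0.36 to 0.47), Ncf4 (0.27 to 0.43) and Rac2 (0.26 to 0.41). Cyba turned positive in limma-voom with sample weights (0.0075) and ranged from -0.11 to 0.028 when 1 sample was left out, positive without PBS sample 4. Hvcn1 ranged from -0.00026 to 0.17 when 1 sample was left out, negative without B. thetaiotaomicron sample 3. Nox1 stayed positive but ran from 0.0012 (without B. thetaiotaomicron sample 3) to 0.33 when 1 sample was left out, with 0.019 without PBS sample 4, and was 0.43 without the 4 libraries that stand apart. In that last setting Nrros had 0.39, Rac1 0.09 and Hvcn1 0.0089. Nox4 was negative with 1 surrogate variable (-0.040), without the 4 libraries (-0.0023) and without B. thetaiotaomicron sample 4 (-0.012, to 0.26 as the highest). With the replicate number as a block, a setting that passes Cybb, Itgax had an edgeR adjusted p of 0.0527. The number of members passing was 1 as reported, 3 with DESeq2, 2 at an adjusted p of 0.1 and 0 in edgeR without the 4 libraries that stand apart, where 3 had an unadjusted p under 0.05. Leaving out 1 sample gave 0 or 1, with 4 members at an unadjusted p under 0.05 each time. Of all genes, 35 passed as reported, 447 with DESeq2, 139 with sample weights, 92 and 74 with the distal hindgut and smooth muscle covariates, 116 with 1 surrogate variable, 198 at an adjusted p of 0.1, 0 without the 4 libraries (1481 at an unadjusted p under 0.05) and 0 to 121 when 1 sample was left out. The cause was not tested beyond the smaller groups and the looser threshold of some settings. With the replicate number as a block 15 genes passed, Cybb among them (0.49, edgeR adjusted p = 0.0442). The titles do not say whether the numbers pair the samples. Over all genes, 1 of 7 B. thetaiotaomicron samples correlated best with the PBS sample of its own number, and the pairs' r ran from -0.26 to 0.60. Such correlations cannot exclude a pairing, since samples of both groups varied widely in distal hindgut markers. The members' counts per sample ran from 73 for Ncf4 to 1106 for Cyba.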
